A study of Mus musculus with 12 samples.

Results

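The positions described here are exact genomic positions at which an ORFtag cassette was listed in all 3 screens of one series. ORFtag is a gene trap in which a retroviral cassette with its own promoter, a selection gene and a protein tag ends in a splice donor, so that the tag is spliced onto the next downstream exon of the gene it lands in or near. A position was 1 chromosome, start and strand, and it was counted as recurring if at least 1 unsorted library of the activating screen, of the repressor screen and of the PTGR (post-transcriptional gene regulator) screen listed it. Of 1338575 unique unsorted positions, 1278 recurred in this way. Presence in the unsorted libraries chose these positions, so their recurrence is a description and carries no test.

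All samples were mouse embryonic stem cells (mESC) labelled as wild-type, each from a clonal reporter line, and each screen had 2 unsorted and 2 sorted libraries. The activating screen used a 7xTetO-pMYLPF-Puro-IRES-GFP reporter and the repressor screen the pEF1-BFP-7xTetO-pPGK-Puro-IRES-GFP construct, both in an expression-stable locus on Chr15 and both paired with a TetR tag. The PTGR screen used a randomly integrated Puro-IRES-GFP-10xBoxB reporter paired with the λN tag. Unsorted cells were transduced and selected with G418 but not sorted on the reporter, and sorted cells had in addition been selected by flow cytometry on the reporter's fluorescence. Per the paper's methods, the PTGR cells went through repeated sorts with expansion between them, and their boxB sites were removed before the last. The sorted libraries of the screens were therefore not handled alike. Each screen rests on 1 clone, so the clone, the reporter and the tag cannot be told apart between screens, and no marker of the cells was measured because only insertion positions were listed. The unsorted libraries held 72496 to 314239 unique positions and the sorted libraries 17750 to 86157, and the number of reads behind each position was not given.

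Retroviruses of the murine leukaemia type, from which such vectors derive, insert by a staggered cut of both DNA strands, made by a symmetric integrase complex, and they are known to favour active enhancers and promoters. The bases on both sides of the cut form a weak palindrome, meaning that the preferred sequence reads the same on both strands. A position that is used more than once can therefore be examined at 3 scales, which are the few bases at the cut, the surrounding kilobase, and the gene that the splice donor would reach.

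The 12 recurring positions found in the largest number of the 12 libraries, at most 1 per gene, are printed because they show the bases at which the cassette was listed most often. Each line gives the gene the position was assigned to, the 30 bases in the mm10 genome and the strand, reading 5′ to 3′ along the strand of the insertion. The listed position, called base 0, is letter 16, and capitals mark letters that match TNNTANNA at bases -6 to 1, the pattern described after the list.
Dusp11 chr6:86384460-86384489, minus strand: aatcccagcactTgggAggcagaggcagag
Pgk1 chrX:106186883-106186912, plus strand: cgcgccaccTtcTActcctcccctagtcag
Morc1 chr16:48607680-48607709, plus strand: ctgaagcagTgggggtAgggtcgcaagatg
Olfr1512 chr14:52381262-52381291, minus strand: taagagcacTgactgctcttctagataggt
Esp38 chr17:39847232-39847261, plus strand: ggaccgcggTtcTAttttgttggttttcgg
Zbtb45 chr7:13013301-13013330, minus strand: ttttctcaaggcTAtgAccttttttttttt
Trim28 chr7:13017706-13017735, plus strand: cattgaaagTcaTccttagctaaagagcaa
Nop58 chr1:59695228-59695257, plus strand: tatcccagcactTggaAagctaaaggcagg
Zfp383 chr7:29906763-29906792, plus strand: accacattgggagAtaAagtagaatctggg
Ly6g chr15:75086775-75086804, plus strand: aacaataggTcacAtgAaggccagccacct
Mid1 chrX:170005185-170005214, plus strand: tgtttggctTtgTttggatgcagggattca
Urm1 chr2:29836350-29836379, plus strand: agtgtgggcTgtcAgtAgctcctaagtaag
None of the 12 matched all 4 letters of the pattern, and 5 matched 3 of them.

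The position assigned to Dusp11, a phosphatase gene, lay between genes at 425182 bases from the assigned exon, and it was listed in 11 of the 12 libraries. Its 30 bases occurred 608 times in the genome. The position assigned to Pgk1, which encodes a glycolytic kinase, was listed in 10 libraries and lay 202 bases from an annotated transcription start. The Morc1 position lay in an intron of Morc1, a gene for silencing of transposons in the male germ line, and was listed in 8 libraries. The Olfr1512 position lay between genes beside an odorant receptor gene and was also listed in 8. Olfr1512, named here after its values were seen, had 2 unsorted positions in all within 200 kb, and both of them recurred. The Trim28 position and the one assigned to Zbtb45 both lay in introns of Trim28, which encodes the corepressor of zinc finger proteins, and each was listed in 7 libraries. The Nop58, Mid1 and Urm1 positions lay in introns of the genes they were assigned to, whereas those of Zfp383 and Ly6g lay between genes. The Esp38 position lay in an exon annotated as ribosomal RNA on chromosome 17, at 106103 bases from the exon of Esp38, a gene for a secreted pheromone peptide. All 12 except those of Dusp11 and Mid1 had 30 bases that occurred once in the reference chromosomes, and the Mid1 bases occurred 6 times. Copies missing from the reference are not counted, so the Esp38 position, in ribosomal RNA sequence, is not shown to be single-copy in the cells.

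Most recurring positions were listed by as few libraries as the rule allows. Of the 1278, 1007 were in 3 unsorted libraries, 232 in 4, 35 in 5 and 4 in 6. Activating replicates 1 and 2 held 656 and 739 of them, repressor replicates 1 and 2 held 711 and 710, and PTGR replicates 1 and 2 held 1055 and 277. PTGR replicate 2 was also the library with the fewest positions. Without PTGR replicate 1 the count was 277, and without any other single library it was between 656 and 1055. Just outside the rule were 28440 positions found in 2 screens, 12629 were found in both libraries of 1 screen, and 1296228 were found in 1 unsorted library only. Pairs of libraries from different screens shared 924 to 4567 positions, which was 0.371% to 1.78% of a library's list. The 2 libraries of the same screen shared 9444 positions in the repressor, 4181 in the activating and 1181 in the PTGR screen. The class found in both libraries of 1 screen therefore came mostly from the repressor screen. Recurring positions made up 0.265% to 0.382% of each unsorted library.

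The bases around the listed position differed between the classes. Thymine stood at base -6 in 65.4% of recurring positions, compared with 51.1% of single-library positions, and adenine stood at base 1 in 72.4% compared with 55.7%. Thymine at base -3 was found in 45.7% compared with 34.9%, and adenine at base -2 in 52.8% compared with 40.6%. Adenine at base -1 was rarer at recurring positions, at 4.23% compared with 10.1%. These letters form the pattern TNNTANNA, which is its own reverse complement, so both strands are searched at once. The pattern was chosen after the base shares were seen, and its comparison therefore carries no p-value. It was complete at 125 of the 1278 recurring positions (9.78%), at 7.33% of positions in 2 screens, at 5.41% of those in both libraries of 1 screen and at 3.10% of single-library positions. Of all windows of the same length in the genome, 0.590% held it, and 40 bases upstream of the recurring positions 0.626% did.

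**Figure D1:**
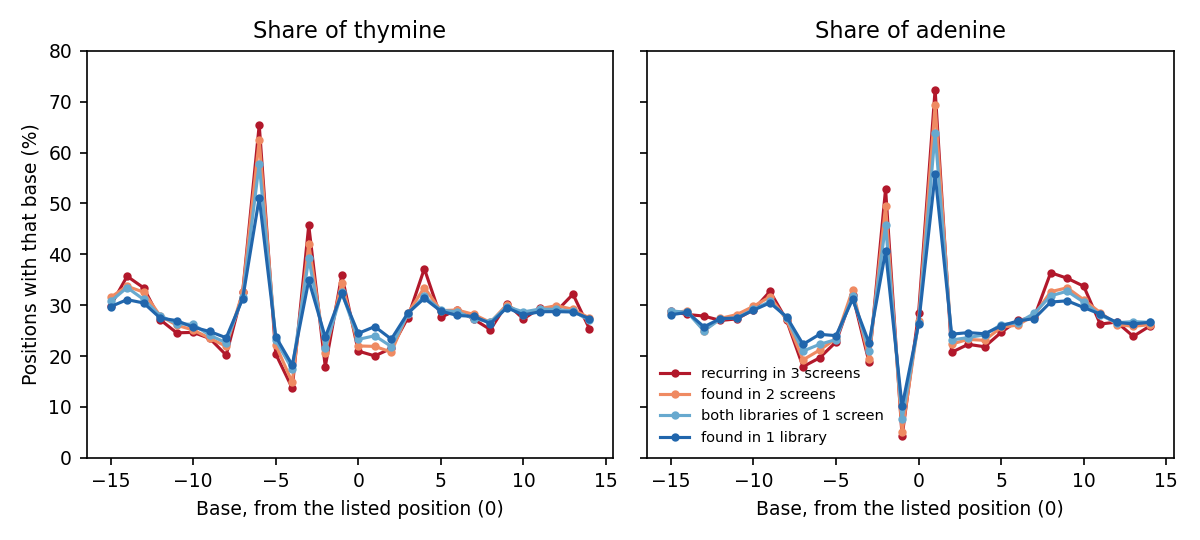
Share of positions with thymine (left) and adenine (right) at each base from the listed position (0), in percent, for 4 classes of unsorted positions. Lines join the shares over all positions of a class. The peaks at bases -6 and -3 for thymine and -2 and 1 for adenine are tallest for recurring positions, at 65.4%, 45.7%, 52.8% and 72.4%.

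The same direction was seen in each library. Adenine at base 1 was found in 70.7% and 73.7% of the recurring positions of activating replicates 1 and 2, in 73.1% and 72.5% of those of repressor replicates 1 and 2, and in 73.0% and 70.8% of those of PTGR replicates 1 and 2. Single-library positions of the same 6 libraries lay between 54.4% and 56.3%, so the ranges did not overlap. The complete pattern averaged 9.49% ± 1.31 (SD over 6 libraries) at recurring positions and 3.08% ± 0.12 at single-library ones. The same recurring position counts in at least 3 libraries, so these 6 values are not independent of one another. Only 18 recurring positions (1.41%) matched none of the 4 letters, compared with 6.69% of single-library positions.

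Recurring positions often had a partner on the opposite strand. An opposite-strand position exactly 5 bases upstream, the mirror image of base 0 through the centre of the palindrome, was present for 422 of 1278 recurring positions (33.0%). At the 22 offsets of 10 to 20 bases on either side the share was 1.88% to 4.46%, with a median of 2.78%. For positions in 2 screens the share at 5 bases was 18.3%, for both libraries of 1 screen 11.4%, and for single-library positions 4.18% against a median of 0.867% at the far offsets. At 6 bases upstream 115 recurring positions had a partner and at 4 bases 63, both well below the 422. The offset of 5 bases was singled out after the profile was seen. For 203 recurring positions (15.9%) the partner was listed in a library that did not hold the position itself, and for 301 (23.6%) in a library that did, some being listed in both. Of single-library positions 44395 (3.42%) and 12065 (0.931%) had a partner in these ways. A recurring position is held by at least 3 libraries and a single-library one by 1, so the shares are not matched.

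**Figure D2:**
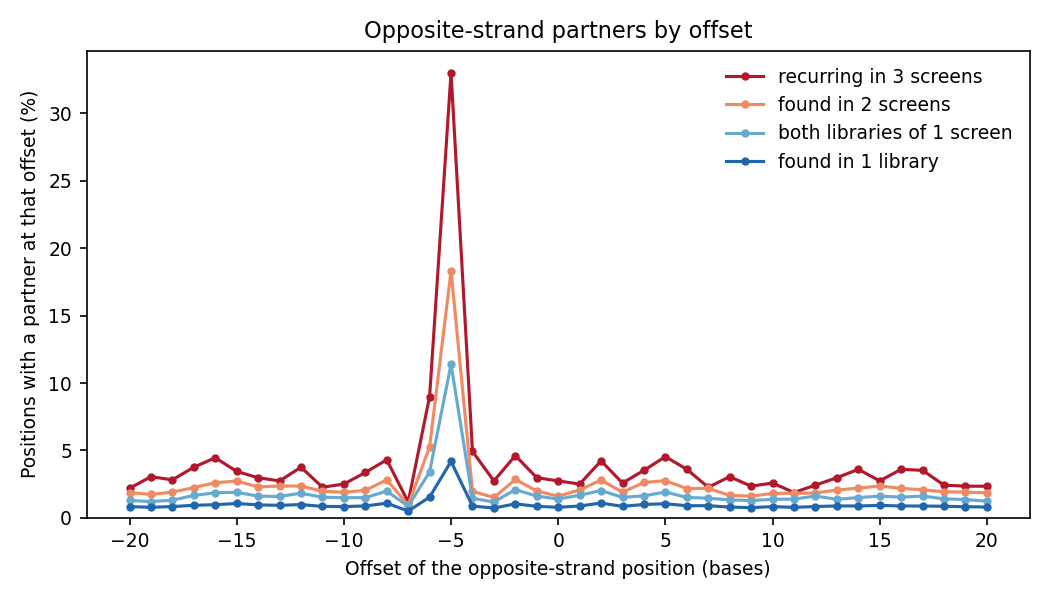
Share of positions (percent) with an unsorted position on the opposite strand at each offset from -20 to 20 bases, negative being upstream, for 4 classes. Each class peaks at -5 bases, at 33.0% for recurring positions and 4.18% for positions in 1 library.

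The planned form of this comparison counted partners 3 to 5 bases away in another library. Recurring positions had one in 37.8% and 35.2% of cases in activating replicates 1 and 2, in 39.0% and 37.9% in repressor replicates 1 and 2, and in 35.7% and 36.8% in PTGR replicates 1 and 2. Single-library positions had one in 6.18% to 6.92%. All 6 libraries differed in the same direction, by 30.5 percentage points on average. Partners and recurrence are counted from the same unsorted lists, so this is a description.

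Recurring positions lay where insertions were dense. Around a recurring position the median number of other unsorted positions within 1 kb was 77, with quartiles of 48 and 114, compared with 52 for positions in 2 screens and 17 for single-library positions. Density and recurrence are counted from the same lists, so this is a description. The base pattern and the partners were therefore also counted among positions of like density. With 11 to 50 neighbours, thymine at base -6 was found in 65.7% of 309 recurring positions, 63.6% of those in 2 screens and 51.4% of single-library ones. With 51 to 100 neighbours it was found in 70.0% of 517 recurring positions, 62.0% of those in 2 screens and 50.5% of single-library ones. The 5-base partner was found there in 33.3%, 22.4% and 10.1%, respectively. With over 100 neighbours the partner was found for 43.2% of 421 recurring positions, 33.5% of those in 2 screens and 15.1% of single-library ones. Thymine at base -6 was found there in 61.5%, 60.0% and 49.6%, and adenine at base 1 in 68.4%, 68.7% and 53.2%, respectively. At that density these base shares hardly differed between recurring positions and those in 2 screens. With 10 neighbours or fewer there were only 31 recurring positions, of which 38.7% had thymine at base -6, compared with 51.1% of single-library positions. The other measures went the opposite way there, with adenine at base 1 in 61.3% compared with 55.4%. The complete pattern was found in 6.45% compared with 3.32%.

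Repeated sequence was more frequent among the positions in most libraries. The 4 positions in all 6 unsorted libraries had a median of 11 neighbours, none carried the complete pattern and 3 of them lay in soft-masked repeats. Their 30 bases occurred more than once in the genome in 2 cases, compared with 49 of 1007 recurring positions in 3 libraries (4.87%), 22 of 232 in 4 (9.48%) and 5 of 35 in 5 (14.3%). Over all recurring positions 78 (6.10%) had such bases, compared with 7.38% of single-library positions. The part of repeated sequence in the recurrence of single positions was not tested.

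Recurring positions lay at a similar median distance from their assigned exons, but more of them lay within the limit used for assignment. Within 200 kb of a downstream exon, that limit, were 1035 of the 1278 (81.0%), compared with 73.6% of single-library positions. For positions in 2 screens the share was 78.4%, and for both libraries of 1 screen 75.1%. These shares were not tested. Within the limit the median distance was 31728 bases for recurring and 31882 bases for single-library positions. A further 236 recurring positions were assigned beyond that limit and 7 had no assigned exon. The exon was number 2 in 888 of the 1035 (85.8%), and in 83.4% of single-library positions. Exon 4 or later was reached from 107 recurring positions (10.3%), compared with 12.2%. The recurring positions were 32 to 199213 bases from their exon.

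Per library, the share of recurring positions assigned to exon 2 was 86.3% and 86.1% in activating replicates 1 and 2, 85.4% and 86.6% in repressor replicates 1 and 2, and 85.3% and 88.8% in PTGR replicates 1 and 2. Single-library positions of these libraries lay between 83.0% and 84.1%, below all 6. Within 2 kb of the exon were 8.20% ± 0.50 (SD, 6 libraries) of recurring positions and 9.62% ± 0.26 of single-library ones, the former lower in 6 of 6 libraries. Among genes that held at least 1 recurring position this turned, and recurring positions were within 2 kb more often, by 2.00 percentage points. There, exon 2 was reached 0.40 percentage points less often. In protein-coding gene bodies lay 38.8% ± 2.2 of recurring positions, compared with 44.0% ± 0.5, and in soft-masked repeats 23.1% ± 1.5, compared with 26.2% ± 0.1. An exon within 2 kb in the reversed direction was listed for 5.02% ± 0.18 and 6.39% ± 0.30, respectively. The next CATG or TTAA, where the enzymes used to recover the insertions cut, was 94.8 ± 2.0 bases upstream of recurring positions and 86.2 ± 3.4 bases upstream of single-library ones, as the mean of library medians.

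None of the 12 planned features passed an adjusted p of 0.05. Those just described, together with the partners within 3 to 5 bases, which are not independent of the rule, were the 7 features at the smallest p that the two-sided exact sign-flip permutation test allows for 6 libraries, 0.03125. This gave an adjusted p of 0.0536, and 8 would have been needed at that p for any to pass. The partners are counted among the 12, so every adjusted p over these features depends on them. The distance itself did not separate the classes, with library medians averaging 32645 ± 1832 bases and 31932 ± 731 bases (exact permutation p = 0.594, adjusted p = 0.648). The direction turned with the setting, since the difference (recurring minus single-library) was -6940 bases among genes with a recurring position and -1309 bases with a maximum of 50 kb, but 1460 bases with positions within 10 bases counted as 1 (adjusted exact permutation p = 0.0469 for each). Positions within 1 kb of an annotated transcription start made up 10.2% of both classes (exact permutation p = 0.969, adjusted p = 0.969), and among genes with a recurring position the recurring ones were higher by 2.98 percentage points (adjusted exact permutation p = 0.0469). Genes with a recurring position were chosen by the rule itself. In each setting the adjusted p of 0.0469 also depends on the partners, so these p-values are not read as results. GC content over 100 bases averaged 45.2% ± 0.5 and 45.0% ± 0.6 (exact permutation p = 0.188, adjusted p = 0.250).

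**Figure D3:**
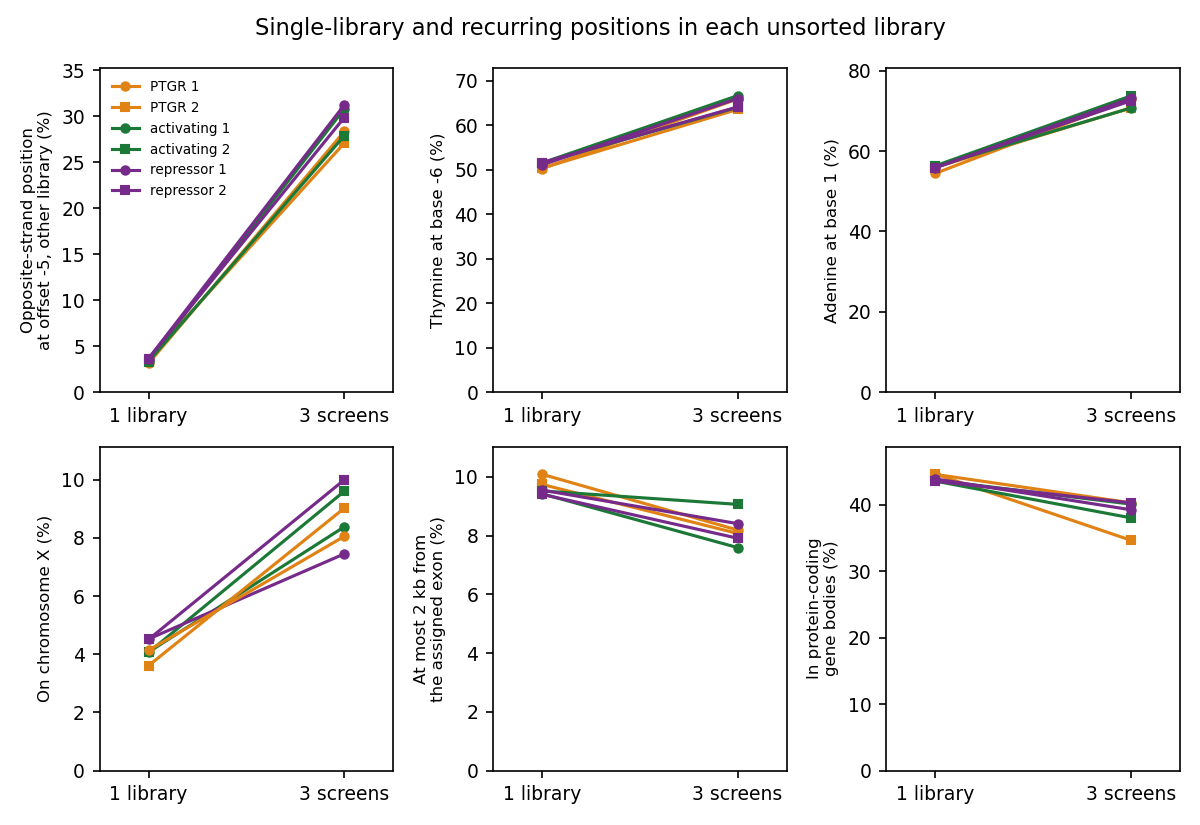
Share of positions (percent) in each of the 6 unsorted libraries, for positions found in 1 library (left) and recurring in 3 screens (right), for 6 measures, with axes starting at 0. Each line is 1 library, coloured by screen, circles being replicate 1 and squares replicate 2. All 6 lines rise for the opposite-strand partner, thymine at base -6, adenine at base 1 and chromosome X, and fall for the 2 kb and gene body shares.

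Chromosome X held 104 of the recurring positions (8.14%), compared with 4.21% of single-library positions. In activating replicates 1 and 2 the X share of recurring positions was 8.38% and 9.61%, in repressor replicates 1 and 2 it was 7.45% and 10.0%, and in PTGR replicates 1 and 2 it was 8.06% and 9.03%. Single-library positions of the same libraries had X shares of 3.61% to 4.53%, so the ranges did not overlap. Without the 13 genes that held 5 or more recurring positions, Pgk1 and Mid1 among them, the X share of recurring positions averaged 7.09% and the difference from single-library positions fell from 4.60 to 2.94 percentage points. Recurring positions beside those of Mid1 that were assigned to other genes stayed in. Chromosome 11 differed in the other direction, with 77 recurring positions (6.03%) compared with 7.68%. Chromosome 18 held 4.46% compared with 3.13%, and chromosome Y held 3 recurring positions in all (0.235%) compared with 0.0293%. At an adjusted p of 0.05, 0 of the 22 chromosomes were called (0.0%), with 13 of them at the smallest exact permutation p of 0.03125, which gave an adjusted p of 0.0529, while 14 were needed. Counting each gene once, 5.60% of genes with a recurring position were on X, compared with 3.89% of all genes with an unsorted position.

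The recurring positions within 200 kb were assigned to 732 of the 18268 genes that had any unsorted position in that range (4.01%). Most of these genes, 559, had 1 recurring position, and 13 had 5 or more. Genes with more insertions held more of them. Of the 1201 genes with at least 200 unsorted positions, 437 (36.4%) had a recurring one, compared with 196 of 1698 (11.5%) with 100 to 199 positions and 2 of 6275 (0.0319%) with 9 or fewer. The rate also differed, at 1.73 recurring positions per 1000 unsorted positions in the first of these classes, 0.964 in the second and 0.116 in the last.

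**Figure D4:**
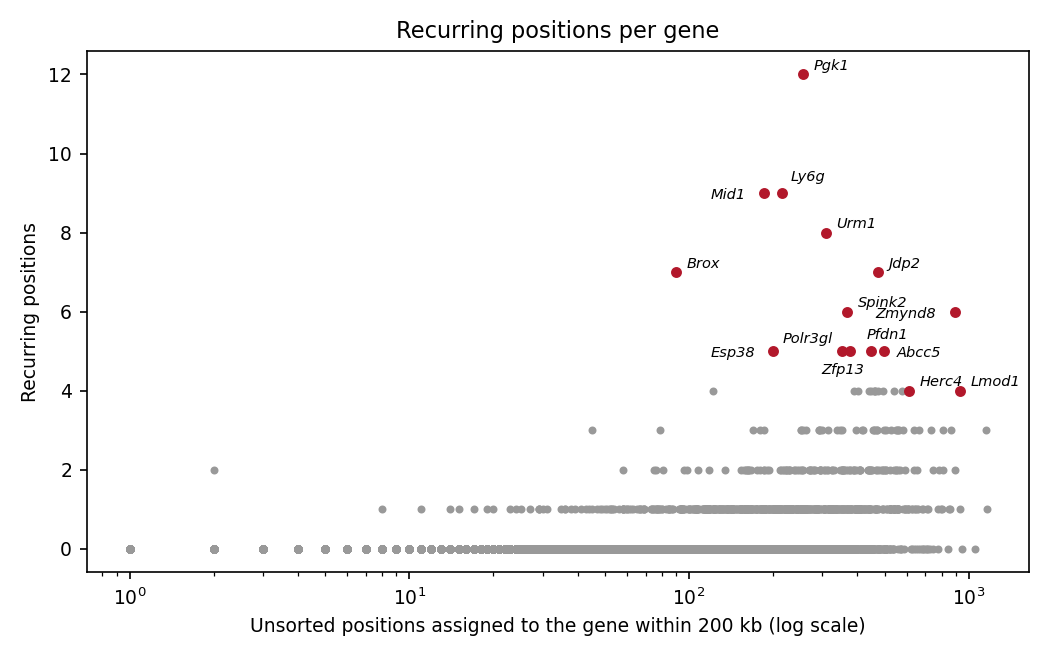
Number of recurring positions of each gene (vertical) against its number of unsorted positions within 200 kb (horizontal, log scale). Each point is 1 of 18268 genes and the 15 genes with the most recurring positions are red. Pgk1 has 12, Mid1 and Ly6g have 9 each, and Brox has 7 among 90 unsorted positions.

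Pgk1 held the most recurring positions, 12 of its 256. In activating replicates 1 and 2 it had 8 and 12 of these, in repressor replicates 1 and 2 it had 7 and 10, and in PTGR replicates 1 and 2 it had 5 and 9. All 12 lay on the strand of the gene, from -292 to -45 bases relative to its start, at chrX:106186808-106187055, and none carried the complete base pattern. Of all 232 unsorted positions within 1 kb of the Pgk1 start, 200 were on that strand. The promoter of Pgk1 is also the promoter in the ORFtag cassette and, per the labels and methods, in the repressor and PTGR reporters, and the endogenous and the introduced copies cannot be told apart from the listed positions. The part of the Hprt intron carried by the cassette held 12 unsorted positions and 0 recurring ones, and Mylpf, whose promoter is in the activating reporter, had 182 unsorted positions and 0 recurring ones.

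Mid1, which encodes a ubiquitin ligase of microtubules and crosses the pseudoautosomal boundary in laboratory mice, had 9 recurring positions among 186. Activating replicates 1 and 2 held 6 each, repressor replicates 1 and 2 held 5 and 6, and PTGR replicates 1 and 2 held 8 and 1. With 7 on the minus strand and 1 on the plus strand that were assigned to other genes they formed the largest group, 17 recurring positions within 1268 bases at chrX:170004309-170005576, of which 10 were on the plus strand. Ly6g, a neutrophil surface protein gene, had 9 recurring positions, and with those of its neighbour Ly6c1 they formed a group of 13 within 1433 bases on chromosome 15. For Ly6g, activating replicates 1 and 2 held 7 each, repressor replicates 1 and 2 held 2 and 7, and PTGR replicates 1 and 2 held 7 and 3. By share of unsorted positions, the leading genes among those with at least 100 were Mid1 (4.84%), Pgk1 (4.69%), Ly6g (4.19%), Ly6c1 (3.28%) and Urm1 (2.60%).

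Urm1, a ubiquitin-like modifier gene, had 8 recurring positions among 308. Jdp2, a dimerization partner of AP-1 factors and a known common insertion site of leukaemia viruses, had 7 among 472. Brox, a BRO1 domain gene, had 7 among 90, within 372 bases. Zmynd8, a chromatin reader gene, had 6 among 893, and Spink2, a protease inhibitor gene, 6 among 368. The transporter gene Abcc5, the prefoldin gene Pfdn1, the RNA polymerase III subunit gene Polr3gl, the zinc finger gene Zfp13 and Esp38 had 5 each. Lmod1, a leiomodin gene, and Herc4, a ubiquitin ligase gene, had 4 each and were named from 14 genes with 4 because they had the most unsorted positions. The Esp38 group of 7 positions, counting both strands, spanned chr17:39846462-39848626 inside the gene annotated as ribosomal RNA, which occupies chr17:39846353-39848827 and had 210 unsorted positions. Together the recurring positions fell into 992 groups with gaps of at most 1 kb. Of these, 832 held a single position and 25 held 4 or more.

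Pluripotency genes carried recurring positions more often than genes at large, and also had more insertions. Of 25 core pluripotency genes, 24 had unsorted positions and 7 of these (29.2%) had a recurring one, compared with 4.01% of all genes. Their median number of unsorted positions was 225, compared with 19 for all genes, and their rate was 1.89 recurring positions per 1000, near the 1.73 of all genes with at least 200 positions. Fgf4, a growth factor gene, had 2 recurring positions among 185 and Zfp42, a marker of the naive state, 2 among 351. Tbx3, a transcription factor gene, had 2 among 477 and Tdgf1, a Nodal co-receptor gene, 2 among 377. Dppa3, Tet1 and Tfcp2l1 had 1 each, whereas the demethylase gene Tet2 had 476 unsorted positions and 0 recurring ones.

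Of 25 Polycomb and chromatin genes 24 had unsorted positions, and 4 of these (16.7%) held recurring ones, compared with 4.01% of all genes. Their median number of unsorted positions was 84.5 and their rate was 1.76 per 1000 unsorted positions. The rate of all genes was 0.514 with 50 to 99 positions and 1.73 with at least 200. Trim28 had 4 of the 7 recurring positions of the list, among 540, and Kdm2b, Mtf2 and Pcgf6 had 1 each. The methyltransferase gene Dnmt3b had 455 unsorted positions and 0 recurring ones. Of 27 genes known as common leukaemia virus sites in tumours 24 had unsorted positions, and only Jdp2 had recurring ones, which as 1 of 24 (4.17%) was near the 4.01% of all genes. The cyclin gene Ccnd3 had 536 unsorted positions and the kinase gene Pim1 508, both with 0 recurring. The 25 ribosomal protein genes had 1606 unsorted positions and 0 recurring ones, Rpl3 alone having 474. Of 20 vomeronasal receptor genes 17 had unsorted positions, 145 in all, and 0 recurring ones. Over all genes the rate was 1.05 recurring positions per 1000 unsorted ones, and against it 0 of 1606 and 0 of 145 are not read as a result about these lists.

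The sorted libraries did not choose the recurring positions, and 232 of the 1278 (18.2%) were found again in at least 1 of them, 180 in exactly 1. Of the 1278, activating sorted replicates 1 and 2 held 21 (1.64%) and 16 (1.25%). Repressor sorted replicates 1 and 2 held 49 (3.83%) and 19 (1.49%), and PTGR sorted replicates 1 and 2 held 118 (9.23%) and 81 (6.34%). Of single-library positions the same 6 libraries held 0.155%, 0.291%, 0.357%, 0.177%, 1.30% and 0.681%. The share of recurring positions was higher in 6 of 6 libraries, by 3.47 ± 2.81 percentage points (SD). The two-sided exact sign-flip permutation test gave p = 0.03125, the smallest possible. By the rule, every recurring position was in an unsorted library of the same screen as each sorted library. Only 366253 to 488232 of the 1296228 single-library positions were. The same 1278 positions were also scored in all 6 sorted libraries, so this p does not measure independent replication.

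**Figure D5:**
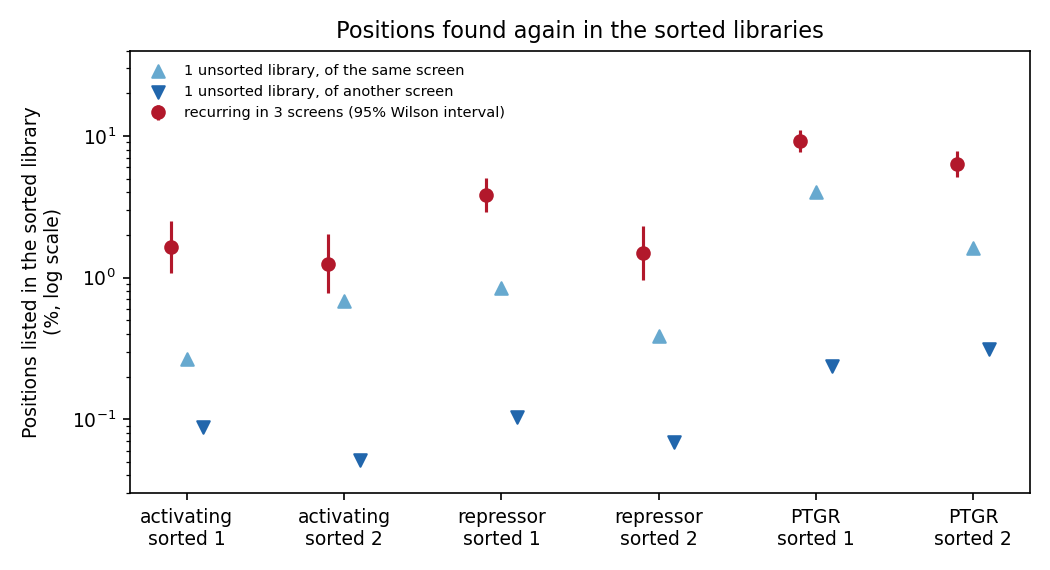
Share of positions (percent, log scale) listed in each of the 6 sorted libraries. Circles are recurring positions with 95% Wilson intervals, which cover counting error only, and triangles are positions of 1 unsorted library, of the same screen (up) or of another screen (down). The circle is the highest mark in all 6 libraries, from 1.25% to 9.23%.

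The sorted libraries of a screen can hold the same cells as its unsorted libraries, and single-library positions were found again mostly within their own screen. In PTGR sorted replicate 1, 4.02% of single-library positions of the PTGR screen were listed, compared with 0.237% of those of the other screens. Set against single-library positions of the same screen only, the recurring positions were still higher, by 2.66 percentage points (exact permutation p = 0.03125). When recurrence was counted without the unsorted library of the same screen and number, the difference was 3.51 percentage points (exact permutation p = 0.03125). That setting also lowered the single-library share, in PTGR sorted replicate 1 from 1.30% to 0.324%. The recurring positions still had to be in the other unsorted library of the screen, so this setting does not remove cells shared within a screen. Without the 13 genes that held 5 or more recurring positions the difference was 2.95 percentage points (exact permutation p = 0.03125). Of positions in 2 screens 9.18% were in at least 1 sorted library, as were 7.50% of those in both libraries of 1 screen and 2.85% of single-library positions.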

How the data were processed

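Insertion sites were recovered by the authors by inverse PCR and sequencing after digestion with NlaIII and MseI. Per the paper's methods, the authors trimmed reads (Trim Galore 0.6.0), aligned first mates to mm10 with Bowtie2 and removed duplicates and low-quality alignments (SAMtools 1.9). Each insertion was assigned to the closest downstream non-first exon of a protein-coding transcript. The deposited lists give a position, exon number and distance per insertion, not reads, so the depth per position is unknown. Intervals cover counting error only. In both repressor unsorted lists about 50.0% of entries were repeats, and each position was counted once. Reversed assignments came from separate deposited lists. Tables of the authors' own screen comparisons were not used.

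Positions were matched exactly on chromosome, start and strand with pandas 2.3.3. Bases, repeats and copies were read from GRCm38, with copies counted in its reference chromosomes only, and gene features from GENCODE. All unsorted positions outside chromosome M lay within the chromosome lengths. The 23 on chromosome M were not checked and have no base values. Shares were computed per library and compared with a two-sided exact sign-flip permutation test (SciPy 1.17.1) over 6 libraries, Benjamini-Hochberg adjusted over 12 features or 22 chromosomes. Per the paper's methods the replicates of a screen were biological and the unsorted libraries came from separate transductions. Libraries share recurring positions, so the 6 differences are not independent. The named genes were the 15 with the most recurring positions, the 5 with the highest share among genes with at least 100 unsorted positions, and the 3 members of each list with the most unsorted positions. Named positions were the 12 in most libraries, at most 1 per gene, with positions on chromosome 18 left out by choice. The recurring positions and gene lists were chosen with earlier results of these data known. The base pattern, the partner at 5 bases, neighbours within 1 kb and copy number were chosen after seeing the data, as was leaving out genes with 5 or more recurring positions or positions whose 30 bases occur more than once. The counting was tested on simulated data. Leaving out each library and the other alternatives are given in the closing section.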

Additional observations from a re-analysis of the deposited data

Results flagged for a closer look

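Both PTGR libraries had a longer median distance to the assigned exon at recurring than at single-library positions, and both repressor libraries a shorter one. The medians were 31019 and 36209 bases at recurring positions of PTGR replicates 1 and 2, compared with 30589 and 31738, and 32173 bases in both repressor replicates, compared with 32273 and 32581. The difference between the 2 screens was 2704.5 bases and was not tested. The share within 1 kb of a transcription start was lower at recurring positions in both PTGR libraries, at 10.5% and 9.39% compared with 10.9% and 11.7%, and higher in both repressor libraries, at 10.1% in each compared with 9.58% and 9.61%. This difference of 1.89 percentage points was not tested either.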

How the results depend on the processing

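The count of 1278 recurring positions fell to 4 when all 6 unsorted libraries were required, rose to 2152 groups when positions within 2 bases were matched, ranged from 277 to 1055 on leaving out each unsorted library, and stayed within 1.5 times under the other settings tried. The excess in sorted libraries kept its direction under every alternative tried. It ranged from 2.58 to 3.97 percentage points on leaving out each sorted library, was 2.32 against positions in 2 or more libraries of fewer than 3 screens, and was 62.0 for the 4 positions in all 6 libraries. The exact permutation p stayed at 0.03125, its smallest value, which carries no sign of stability. The number of planned features past an adjusted p of 0.05 went from 0 to 8 among genes with a recurring position, with a maximum distance of 50 kb, and with recurring positions within 10 bases counted as 1, and to 11 with the 4 positions in all 6 libraries. That last count is void as a test, since the same 4 positions stand in every library.

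With those 4 positions the difference from single-library positions was -25272 bases for the median distance, -9.62 percentage points for the share within 2 kb, 16.5 for exon 2, 14.8 for transcription starts, 48.8 for soft-masked repeats, -67.2 bases to the upstream CATG or TTAA, -3.08 points for TNNTANNA, -1.02 for thymine at base -6, -5.76 for adenine at base 1, 17.4 for the partner at 5 bases, 42.5 for repeated bases and -5.50 neighbours within 1 kb. Among genes with a recurring position it was -6940 bases for the median distance, 2.00 points within 2 kb, -0.40 for exon 2, 2.98 for transcription starts and -0.054 for GC content. With a maximum of 50 kb it was -1309 bases, -2.38 points within 2 kb and 4.63 for exon 2. With positions within 10 bases counted as 1 it was 1460 bases, -1.47 points within 2 kb, 2.95 for exon 2 and 0.021 for distances over 50 kb. Without the genes with 5 or more recurring positions GC content differed by -0.25 points. With bases that occur once in the genome, the median distance differed by -334 bases and the share at transcription starts by 0.27 points. The causes were not tested.

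On leaving out each library the median distance difference ranged from -38.6 to 937 bases, the share within 2 kb from -1.61 to -1.32 points, exon 2 from 2.52 to 3.06, TNNTANNA from 6.12 to 6.83, the partner at 5 bases from 25.4 to 26.2, and the X share from 4.41 to 4.94. Counting genes once gave an X difference of 1.71 points. Requiring 2 recurring positions left 173 of 732 genes, and all 6 libraries left 2. No paired analysis was possible because no groups of libraries with shared replicate numbers are compared, and the sign-flip test already pairs recurring with single-library positions within each library. The smallest p of 0.03125 and the unknown number of reads per position limit these comparisons.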
